A study of Homo sapiens with 6 samples.

Results

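The genes described here are 41 genes of glycolysis and of the transcriptional response to low oxygen, chosen by name from the 29123 gene names on the array. All 41 were found, with 73 of the 41000 probes, and each gene is described by its brightest probe. RNA of established human ovarian cancer cell lines was hybridized to 6 Agilent Whole Human Genome arrays, each of which reads 1 RNA in Cy3 and another in Cy5. In SKOV3 cells, sh-S1 and sh-S2, stable clones that carry a short hairpin RNA against Hic-5 (shRNA-Hic-5), were each compared with a Ctrl clone carrying a scrambled hairpin. Each clone had 2 arrays, which differed in which RNA carried which dye. In A2780s cells, a pCMV-Hic-5 clone, in which the cytomegalovirus promoter drives Hic-5, was compared with a Ctrl clone carrying the empty vector, again on 2 dye-exchanged arrays. Every RNA came from a drug-selected clone grown in serum-containing medium, and no step at low oxygen is described in the sources used here. Hic-5, encoded by TGFB1I1, is a LIM-domain adaptor protein of focal adhesions, and the study asked how its suppression or overexpression alters these cells.

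Glycolysis converts glucose to pyruvate in the cytosol. Glucose enters through facilitative transporters of the SLC2A family and is trapped by hexokinases, phosphofructokinase sets the pace of the committed step, and the lower enzymes yield pyruvate, which lactate dehydrogenase turns into lactate for export by the monocarboxylate transporters. The alpha subunits of the hypoxia-inducible factors, HIF-1 alpha (HIF1A) and HIF-2 alpha (EPAS1), are hydroxylated by the prolyl hydroxylases of the EGLN family when oxygen is present and are then degraded. When they persist, they pair with ARNT and bind short hypoxia response elements with the core RCGTG, near genes for glucose transporters, glycolytic enzymes, mitophagy receptors and collagen-modifying enzymes. The control of HIF alpha is largely at the level of the protein, so a transcript level of HIF1A or EPAS1 is not a measure of HIF activity. Many tumour cells keep glycolysis high even with oxygen present.

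The promoters of 5 genes are shown because their transcripts differed in opposite ways or to different extents between the SKOV3 clones, as described further on. Each window runs from 250 bases before to 50 bases after the transcription start in RefSeq on GRCh38.p14 and reads 5′ to 3′ along the gene. Capitals mark the letters ACGTG or GCGTG, the core of a hypoxia response element, on either strand (CACGT and CACGC on the other strand). Matches can overlap, so that CACGTG is counted on both strands. The windows lie at chr10:131981874-131982173 (BNIP3, minus strand), chrX:78103998-78104297 (PGK1, plus), chr4:185396591-185396890 (ANKRD37, plus), chr11:18394313-18394612 (LDHA, plus) and chr11:10304823-10305122 (ADM, plus).
BNIP3: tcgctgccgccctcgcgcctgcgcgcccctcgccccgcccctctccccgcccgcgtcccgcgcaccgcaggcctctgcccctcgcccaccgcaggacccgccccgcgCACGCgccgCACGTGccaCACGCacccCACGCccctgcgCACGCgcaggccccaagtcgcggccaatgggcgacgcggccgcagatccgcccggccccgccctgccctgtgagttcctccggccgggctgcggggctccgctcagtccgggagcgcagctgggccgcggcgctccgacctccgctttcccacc
PGK1: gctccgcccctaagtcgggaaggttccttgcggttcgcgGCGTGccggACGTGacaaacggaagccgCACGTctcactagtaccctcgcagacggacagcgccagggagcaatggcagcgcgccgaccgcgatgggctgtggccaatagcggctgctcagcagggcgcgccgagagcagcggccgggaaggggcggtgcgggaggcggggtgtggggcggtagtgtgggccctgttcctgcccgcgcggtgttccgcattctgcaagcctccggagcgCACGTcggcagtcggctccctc
ANKRD37: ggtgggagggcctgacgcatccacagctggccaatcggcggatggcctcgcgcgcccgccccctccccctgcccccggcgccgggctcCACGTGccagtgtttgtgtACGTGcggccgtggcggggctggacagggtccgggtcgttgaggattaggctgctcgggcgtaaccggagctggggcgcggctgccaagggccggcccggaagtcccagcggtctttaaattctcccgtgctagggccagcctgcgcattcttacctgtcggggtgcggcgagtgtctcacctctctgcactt
LDHA: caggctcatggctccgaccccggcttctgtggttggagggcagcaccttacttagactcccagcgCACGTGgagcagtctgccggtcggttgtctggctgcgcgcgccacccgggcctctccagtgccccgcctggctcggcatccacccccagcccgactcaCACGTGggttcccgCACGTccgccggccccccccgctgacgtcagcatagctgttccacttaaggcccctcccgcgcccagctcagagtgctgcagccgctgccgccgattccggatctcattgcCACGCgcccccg
ADM: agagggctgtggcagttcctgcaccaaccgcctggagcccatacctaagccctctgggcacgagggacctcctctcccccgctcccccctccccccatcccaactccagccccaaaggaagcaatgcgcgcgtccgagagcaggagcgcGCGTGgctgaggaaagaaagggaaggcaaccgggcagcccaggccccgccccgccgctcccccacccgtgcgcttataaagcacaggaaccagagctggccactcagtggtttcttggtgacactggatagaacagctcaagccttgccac
In these windows the ACGTG letters were found 2 times for BNIP3, 3 times for PGK1, 3 times for ANKRD37, 5 times for LDHA and 0 times for ADM, and GCGTG was found 4, 1, 0, 1 and 1 times. Where a gene had more than 1 window, the one with the most matches was shown. This concerned LDHA, whose other window, at chr11:18396101-18396400, held ACGTG 0 times and GCGTG 1 time. The RefSeq table held 65 windows of 36 members, and 43.1% of them carried ACGTG on either strand, against 21.4% of all 35116 windows. Either core was present in 69.2% of the members' windows and in 48.4% of all windows. A match is a run of letters, and binding was not measured. The 5 genes were picked after their values were seen, and a link between these letters and the transcripts was not tested. PGAM1, higher in sh-S2 than in sh-S1 by a log2 difference of 0.88, had ACGTG 0 times and GCGTG 0 times. SLC2A1, higher by 0.80, had them 0 and 1 times. LOX, at a difference of -0.23, had a window with ACGTG 4 times.

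Before the results, the labels were set against the genes that define them. TGFB1I1 was higher in the pCMV-Hic-5 clone than in its Ctrl, by a mean log2 ratio of 3.33, but in the SKOV3 RNAs that carry the labels sh-S1 and sh-S2 it was not lower than in the Ctrl (mean log2 ratio 0.03, adjusted p = 0.855 by limma). Of 10 markers of ovarian epithelial tumour lines, 6 were called lower in both of these clones together, namely PAX8, KRT7, KRT8, KRT18, KRT19 and ERBB2, with mean log2 ratios between -3.58 and -2.14. KRT18 had a log2 level of 14.73 in the SKOV3 Ctrl, 11.29 in sh-S1, 11.11 in sh-S2 and 9.43 in the A2780s Ctrl. Of the remaining 4 markers, WT1 and MUC16 had adjusted p of 0.910 and 0.738, and EPCAM and CDH1 were too dim to be tested. Of stromal, immune and endothelial markers, COL1A1, COL1A2 and CD3E were tested and not called in the clones, and PTPRC, PECAM1 and VWF were too dim to be tested. TGFB1I1 had a log2 level of 8.23 in the SKOV3 Ctrl and of 12.78 in the A2780s Ctrl. The study, by contrast, reported rather low Hic-5 protein in A2780s cells and strong expression in SKOV3 cells. Directions for sh-S1 and sh-S2 therefore rest on their labels, and the part of the lower epithelial markers in the results below was not tested. Comparisons between the Ctrl RNAs rest on their labels as well. Cy5 was dim on the SKOV3 arrays, with a median signal above background of 9.52 to 25.5 against 373 to 530.5 in Cy3, and the A2780s arrays had 325 to 369 in Cy3 and 441 to 568 in Cy5.

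In SKOV3, the transcripts of both HIF alpha subunits, of lactate dehydrogenase A and of the lactate exporter SLC16A3 were lower in the clones than in the Ctrl, while the muscle-type phosphofructokinase PFKM was higher. A gene was called at a 2-fold or larger mean change over the 2 clones with limma's p, adjusted by Benjamini-Hochberg over all 24956 probes tested, at or under 0.05. Of 41 members, 36 were tested, 2 were called higher and 8 lower, where 2.98% of all probes were called higher and 4.16% lower. Without sh-S1, on fold alone, 6 members were higher and 7 lower, and the percentages just given do not apply to that looser rule. Past the adjusted p alone were 9 higher and 16 lower members, against 15.6% and 16.2% of all probes. The median log2 ratio of the members was -0.06, and that of all probes was 0.00. In RNA of whole cultures, fewer cells that express a gene and less of its RNA per cell cannot be told apart. One Ctrl RNA served for both clones, and no array measured its own spread. The labels do not say that the clones' RNAs came from separate cultures. The p-values thus cover only spread between the clones' values, and limma draws each gene's spread toward that of all probes. BNIP3, for example, had an SD of 1.09 but a limma SE of 0.31, and PFKM an SD of 0.01 but an SE of 0.09.

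HIF1A had log2 ratios of -1.95 with sh-S1 in Cy5, -2.07 with sh-S1 in Cy3, -1.92 with sh-S2 in Cy5 and -2.43 with sh-S2 in Cy3. All 4 arrays lay close together, and the mean was -2.09 ± 0.12 (SD, n = 2; SE 0.10; adjusted p = 1.97e-05 by limma). EPAS1 had ratios of -1.45, -3.12, -1.77 and -3.95 on the arrays in the same order, with a mean of -2.57 ± 0.41 (SD, n = 2; adjusted p = 4.36e-05 by limma). Its fall was larger on both arrays that read the clone in Cy3 than on the others, so that its size depends on the dye orientation and its direction does not. The HIF1A probe lies at chr14:62214845-62214904 and the EPAS1 probe at chr2:46613666-46613725 in hg19 coordinates of the files. EGLN1, the main oxygen sensor among the prolyl hydroxylases, had ratios of 0.08, -0.24, 0.41 and 0.85 and did not pass the test (adjusted p = 0.280, limma). EGLN3, another prolyl hydroxylase, was too dim to be tested in either cell line.

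**Figure D1:**
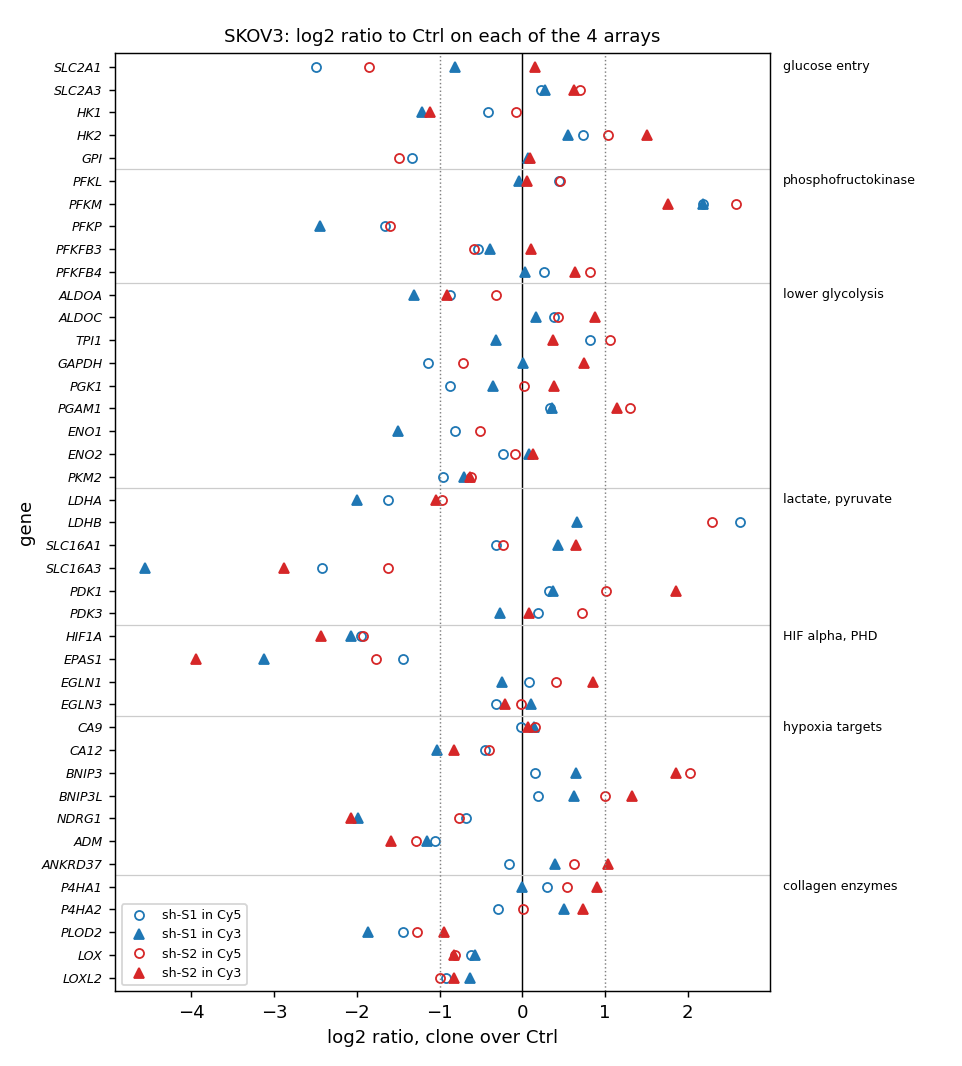
Log2 ratio of clone over Ctrl (horizontal axis) for each of the 41 genes (vertical axis, grouped by role) on each SKOV3 array, with sh-S1 in blue, sh-S2 in red, open circles for the clone in Cy5 and triangles for the clone in Cy3. Dotted lines mark a 2-fold difference. HIF1A, EPAS1 and SLC16A3 lie left of the lower line on all 4 arrays and PFKM right of the upper line, while for BNIP3, PDK1 and PGAM1 the red symbols lie to the right of the blue ones.

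SLC16A3 encodes the monocarboxylate transporter MCT4, which exports lactate. Its log2 ratios were -2.42 and -4.56 for sh-S1 in Cy5 and Cy3 and -1.62 and -2.89 for sh-S2, all below 0. The mean of -2.87 ± 0.87 (SD, n = 2; adjusted p = 0.000320 by limma) was the lowest among the 36 members tested, and the probe lies at chr17:80197288-80197347 (hg19). LDHA, which reduces pyruvate to lactate, had ratios of -1.62, -2.0, -0.97 and -1.04, again below 0 on every array. Its mean was -1.41 ± 0.57 (SD, n = 2; adjusted p = 0.00155 by limma). The other LDHA probes gave -1.89 and -1.78, both called, although the files place one of these at chr9:14921817-14921876 (hg19) rather than on chromosome 11, where the brightest probe lies. SLC16A1, the related transporter MCT1, had ratios between -0.31 and 0.66 and an adjusted p of 0.360.

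LDHB, the lactate dehydrogenase subunit that favours the formation of pyruvate, lost its spot on the array with sh-S2 in Cy3 to a flag for non-uniform signal and was therefore not tested. Its other ratios were 2.63, 0.66 and 2.29. With flagged spots kept, a setting chosen after seeing the data, the mean of LDHB was 1.67 ± 0.03 (SD, n = 2; adjusted p = 3.95e-05 by limma), opposite in direction to LDHA. PDK1 and PDK3, kinases that inhibit pyruvate dehydrogenase, had means of 0.89 ± 0.77 (SD, n = 2; adjusted p = 0.0265 by limma) and 0.18 ± 0.31 (SD, n = 2; adjusted p = 0.349 by limma). Neither was called.

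Among the genes of glucose entry, SLC2A1 (GLUT1) was called lower, with ratios of -2.49, -0.81, -1.86 and 0.16. The larger falls came from the arrays that read the clone in Cy5, and sh-S2 in Cy3 lay above 0. Its mean was -1.25 ± 0.57 (SD, n = 2; adjusted p = 0.00252 by limma), and its other, dimmer probe gave -0.28. Its mean was -0.33 when only the arrays reading the clone in Cy3 were used and -0.85 without sh-S1, both short of 2-fold. HK2, the hexokinase isoform common in tumours, had ratios of 0.74, 0.55, 1.04 and 1.51, above 0 on every array, and its mean of 0.96 passed the adjusted p (0.00379, limma) but fell just short of 2-fold, and its other probe gave 0.11. HK1, the widely expressed isoform, went the other way at -0.70 with an adjusted p of 0.00254, also short of 2-fold. SLC2A3 (GLUT3) averaged 0.45, and GPI, which converts glucose 6-phosphate to fructose 6-phosphate, averaged -0.66 with arrays on both sides of 0.

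The phosphofructokinase isoforms did not move together. PFKM had ratios of 2.19, 2.18, 2.59 and 1.77, well above 0 on every array, and a mean of 2.18 ± 0.01 (SD, n = 2; adjusted p = 1.32e-05 by limma). PFKP, the platelet-type isoform, had ratios of -1.66, -2.45 and -1.60 and lost its remaining spot, with sh-S2 in Cy3, to the same flag as LDHB. With flagged spots kept, its mean was -1.92 ± 0.17 (SD, n = 2; adjusted p = 3.49e-05 by limma). PFKL, the liver-type isoform, averaged 0.23 with an adjusted p of 0.113. PFKFB3 and PFKFB4 make fructose 2,6-bisphosphate, which activates phosphofructokinase, and they averaged -0.35 and 0.44, neither called.

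None of the 7 lower glycolytic enzymes tested was called. ALDOA (aldolase A) averaged -0.85 and PKM2 (pyruvate kinase M) averaged -0.73, both below 0 on 4 of 4 arrays and past the adjusted p, at 0.00326 and 0.00211 (limma). Their other, dimmer probes gave 0.12, with arrays on both sides of 0, and -0.30, and neither passed the adjusted p. ALDOC averaged 0.47, TPI1 0.49 and PGAM1 0.79, all past the adjusted p but under 2-fold. A dimmer TPI1 probe gave 0.11 and did not pass the adjusted p. GAPDH averaged -0.28 and PGK1 -0.21, with 2 of 4 arrays on each side of 0. ENO1, the main enolase, had ratios of -0.81, -1.50 and -0.51 and lost a spot as PFKP and LDHB did, and with flagged spots kept its mean was -0.91 with an adjusted p of 0.00255. ENO2 was too dim in SKOV3 to be tested.

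Among the hypoxia response genes, BNIP3, a mitophagy receptor, was called higher, with ratios of 0.15 and 0.66 for sh-S1 and of 2.03 and 1.86 for sh-S2. The clones did not overlap, and the mean of 1.17 ± 1.09 (SD, n = 2; adjusted p = 0.0297 by limma) rested on sh-S2, without which the value was 0.40. NDRG1, a stress-response gene, was called lower at -0.69, -1.99, -0.77 and -2.07, with a mean of -1.38 ± 0.06 (SD, n = 2; adjusted p = 9.71e-05 by limma). From the arrays reading the clone in Cy5 it was -0.73, short of 2-fold. ADM, the vasodilator peptide adrenomedullin, had ratios of -1.05, -1.15, -1.29 and -1.59, below 0 throughout, with a mean of -1.27 ± 0.24 (SD, n = 2; adjusted p = 0.000322 by limma). BNIP3L, a relative of BNIP3, averaged 0.78, while ANKRD37 averaged 0.47, and the carbonic anhydrases CA9 and CA12, which buffer acid at the cell surface, averaged 0.09 and -0.68. The other BNIP3L probe, of similar brightness, gave -0.04 with arrays on both sides of 0. The dimmer CA12 probes gave between -0.03 and 0.10.

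Of the collagen-modifying enzymes, PLOD2, a lysyl hydroxylase, was called lower at -1.44, -1.87, -1.27 and -0.95, with a mean of -1.38 ± 0.38 (SD, n = 2; adjusted p = 0.000534 by limma). LOX and LOXL2, the oxidases that cross-link collagen, averaged -0.71 and -0.84, were below 0 on 4 of 4 arrays and passed the adjusted p at 0.00257 and 0.000917 (limma) without reaching 2-fold. P4HA1 and P4HA2, prolyl hydroxylases of collagen, averaged 0.43 and 0.24 and did not pass the adjusted p.

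Between the clones, 11 members, among them BNIP3, SLC16A3, PDK1, LDHA and PGK1, were at least 1.5-fold higher in the RNA of sh-S2 than in that of sh-S1. This comparison was chosen after its values were seen and has no test, since each clone is 1 replicate. It takes the log2 ratio of sh-S2 minus that of sh-S1 at the same dye orientation, which cancels the shared Ctrl apart from its spot-to-spot error. A member was counted when the mean of both orientations reached 1.5-fold and both had the same direction. The 11 were counted among 36 members measured, with 0 lower, where 1.32% of all 24956 probes were higher and 1.74% lower by the same rule. Here as in the other comparisons, members stand by their brightest probe, while the shares count every probe tested, dimmer ones included. In both orientations 26 members lay above 0 and 5 below, against 27.5% and 31% of all probes. The median difference was 0.43 over the members and -0.01 over all probes. Of the 6 epithelial markers called, KRT8 had mean log2 ratios of -2.30 (sh-S1) and -1.98 (sh-S2), while KRT7 had -1.94 and -2.46 and ERBB2 -2.16 and -2.41. PAX8 had -3.63 and -3.53, KRT18 -3.60 and -3.45 and KRT19 -2.56 and -2.53, so that the markers differed between the clones in both directions. The arrays of sh-S2 were the brighter ones in Cy5, with median signals of 14.2 and 25.5 against 9.52 and 18.0, and the part of the markers and of the signal in the members' difference was not tested.

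BNIP3 differed most, by 1.88 with both clones in Cy5 and 1.20 with both in Cy3. SLC16A3 followed at 0.79 and 1.67, and PDK1 at 0.68 and 1.49. These 3 genes were thus at least 1.5-fold higher in sh-S2 in each orientation. The differences of PGAM1 were 0.97 and 0.79, of PGK1 0.90 and 0.74, of LDHA 0.65 and 0.96, of SLC2A1 0.64 and 0.96, of BNIP3L 0.81 and 0.70 and of ANKRD37 0.79 and 0.64, so that the orientations of each of these 6 genes lay close together. EGLN1, at 0.33 and 1.1, and HK2, at 0.30 and 0.96, reached 1.5-fold only with the clones in Cy3. Just under the threshold were PFKFB4, GAPDH and P4HA1, at means of 0.58, 0.58 and 0.57.

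By role, 3 of 5 genes of lactate and pyruvate fate, 2 of 7 lower glycolytic enzymes, 2 of 5 genes of glucose entry, 3 of 7 hypoxia response genes and 1 of 3 HIF alpha and prolyl hydroxylase genes were higher in sh-S2, and the brightest probe of each of the 7 lower enzymes measured lay above 0 in both orientations. The median of the 7 hypoxia response genes was 0.13. None of the 4 genes of phosphofructokinase and its regulators and none of the 5 collagen-modifying enzymes reached 1.5-fold. The HIF alpha subunits themselves were not higher, with means of -0.17 for HIF1A and -0.57 for EPAS1. ADM was also lower rather than higher in sh-S2, at -0.24 and -0.44, and NDRG1 differed by -0.08 in both orientations, so that these 2 hypoxia response genes did not follow BNIP3. Dimmer probes gave smaller differences for SLC2A1 (0.12), PDK1 (0.37) and HK2 (0.23). Probes of similar brightness gave smaller differences for BNIP3L (0.14) and EGLN1 (0.36), and a dimmer EGLN1 probe gave 0.23. For the lower enzymes ALDOA and TPI1, dimmer probes lay on the other side of 0, at -0.23 and -0.15. The other LDHA probes gave 0.81 and 0.56, the latter short of 1.5-fold. Further PGK1 probes gave 1.14, 0.46 and 0.09, of which only the first reached 1.5-fold.

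**Figure D2:**
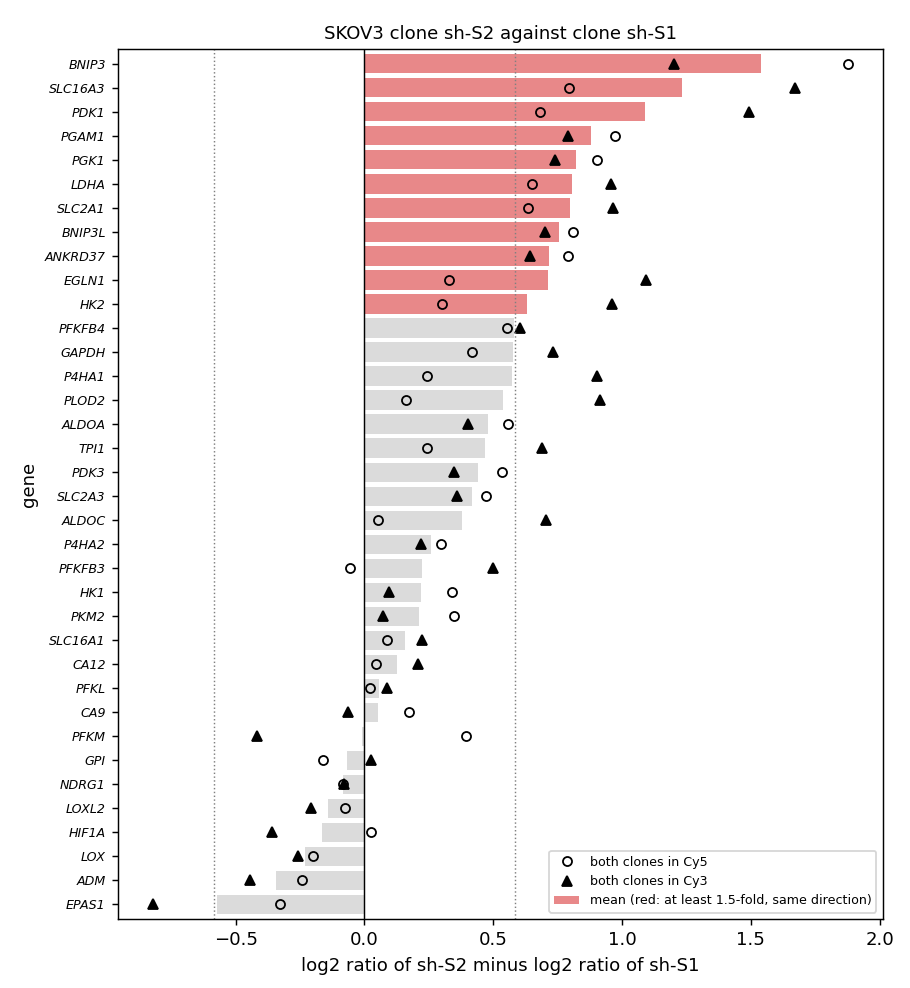
Log2 ratio of sh-S2 minus log2 ratio of sh-S1 (horizontal axis) for the 36 members measured in SKOV3 (vertical axis), with circles for both clones in Cy5, triangles for both in Cy3 and bars for their mean. Dotted lines mark 1.5-fold, and red bars the 11 members at least 1.5-fold higher with both orientations in the same direction. BNIP3 is at the top with 1.88 and 1.20, and EPAS1 is at the bottom with a mean of -0.57.

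In A2780s, the pCMV-Hic-5 clone differed little from its Ctrl in these genes. With 1 replicate there is no test, and a member was called when the mean of both arrays reached 1.5-fold in the same direction. Of 39 members measured, 0 were higher and 2 lower, where 3.26% of all 30530 probes were higher and 1.32% lower. On both arrays 21 members lay below 0 and 9 above, against 28.5% and 31.2% of all probes, and the median was -0.19 for the members and -0.01 for all probes. SLC2A1 had log2 ratios of -0.88 (clone in Cy5) and -0.66 (clone in Cy3), with a mean of -0.77, and its dimmer probe gave 0.02. P4HA2 had -1.13 and -0.28, with a mean of -0.70 that rested mainly on the first of these arrays.

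LDHA came just short of the threshold at -0.61 and -0.51, with a mean of -0.56, and its other probes gave -0.59 and -0.85, both past it. EPAS1 averaged -0.52, EGLN1 -0.50, ENO2 -0.46, HK2 -0.45, PFKFB3 -0.44 and PFKFB4 -0.41, each below 0 on both arrays. Another EGLN1 probe, of similar brightness, gave -0.60, past the threshold. PFKP had -0.41 on both arrays, and SLC2A3, GPI, PDK1, PDK3, HIF1A, CA12, BNIP3, ANKRD37, P4HA1, PLOD2 and LOX lay below 0 on both as well, with means between -0.39 and -0.13. On the other side were ADM at 0.57, GAPDH at 0.50, PFKL at 0.49, ALDOA at 0.47 and NDRG1 at 0.41. ALDOA had another probe at 0.73, past the threshold. PKM2, ALDOC, ENO1 and PGK1 were also above 0 on both arrays, at means of 0.23, 0.22, 0.10 and 0.07. The arrays disagreed in direction for HK1, PFKM, TPI1, PGAM1, LDHB, SLC16A1, SLC16A3, CA9 and LOXL2. BNIP3L lost a flagged spot and had a single ratio of 0.15.

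**Figure D3:**
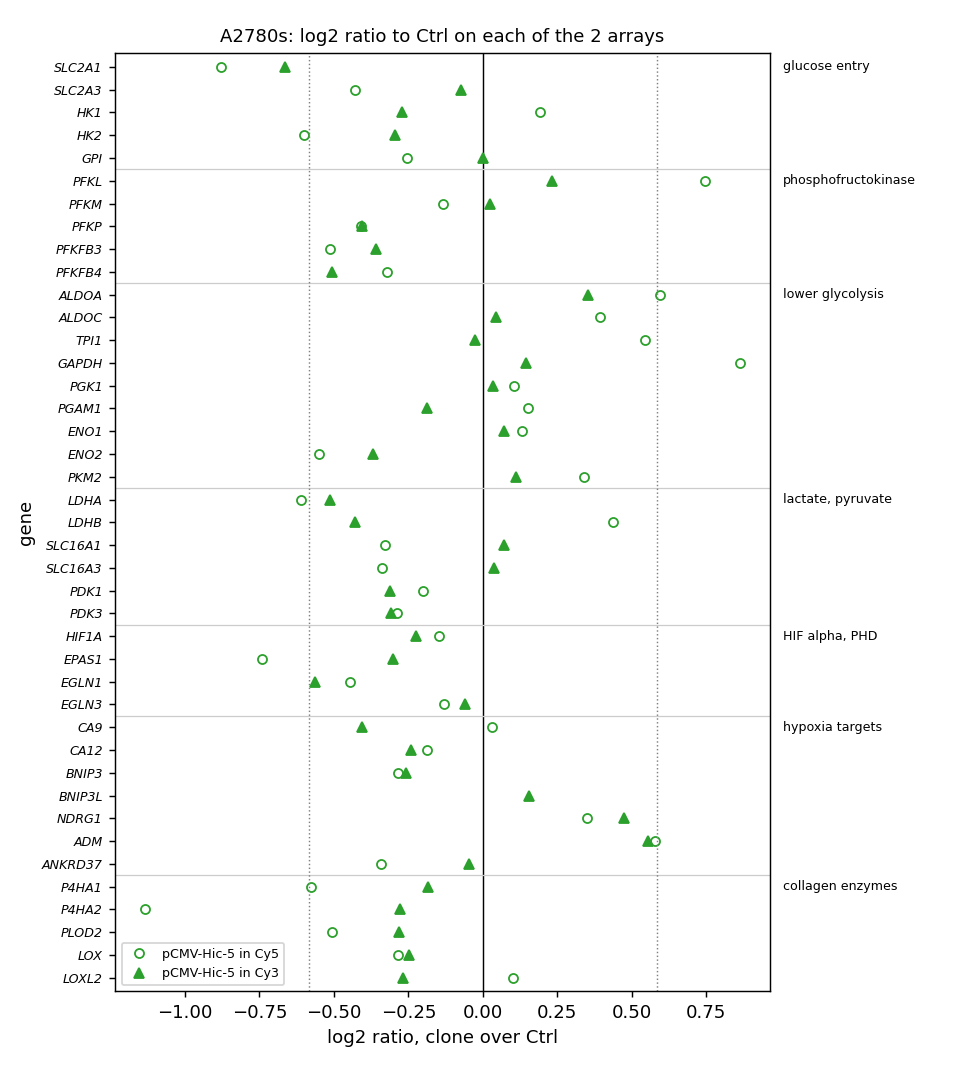
Log2 ratio of pCMV-Hic-5 over Ctrl (horizontal axis) for each of the 41 genes (vertical axis, grouped by role) on both A2780s arrays, with circles for the clone in Cy5 and triangles for the clone in Cy3. Dotted lines mark 1.5-fold. Most symbols lie between the lines, with SLC2A1 left of the lower line on both arrays and P4HA2 on 1 array, at -1.13.

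For the genes called in SKOV3, the A2780s means were -0.77 for SLC2A1, -0.56 for LDHA, -0.15 for SLC16A3, -0.19 for HIF1A, -0.52 for EPAS1, 0.41 for NDRG1, 0.57 for ADM, -0.39 for PLOD2, -0.05 for PFKM and -0.27 for BNIP3. By brightest probes, SLC2A1 was the 1 member called in both lines, lower in each, but its dimmer probe was called in neither, while the 2 dimmer LDHA probes were called lower in both.

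Between the Ctrl RNAs of the lines, members stood apart in both directions. Channel levels are log2 values after loess and Aquantile normalization of all 12 channels, and the same probe is compared between RNAs. The A2780s arrays shared a slide and a scan apart from those of the SKOV3 arrays, so that slide and line cannot be told apart, and no test was made. Of 36 members compared, 11 were at least 2-fold higher in A2780s and 9 at least 2-fold lower with no overlap of channels, where 7.94% and 9.5% of all 30784 probes were.

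Lower in the A2780s Ctrl were SLC16A3, at 15.14, 16.25, 15.44 and 16.74 in the SKOV3 Ctrl channels against 11.55 and 11.22 in A2780s, a 22.8-fold difference, and EPAS1, at 10.61 to 11.21 against 7.52 and 7.58, a 10.4-fold difference. On the log2 scale, A2780s minus SKOV3, NDRG1 came to -2.92, LOXL2 to -1.93, HIF1A to -1.72, ALDOA to -1.60, LOX to -1.44, PKM2 to -1.32 and HK1 to -1.01. For HK1 the difference was 0.04 on Feature Extraction's processed signals centred on their medians, opposite in sign. Higher in the A2780s Ctrl were PDK1, at 8.78 to 8.99 in SKOV3 against 11.22 and 11.16, HK2 by 2.21, PFKM by 2.14, BNIP3 by 1.88, P4HA1 by 1.69, ANKRD37 by 1.66, ALDOC by 1.47, SLC2A3 by 1.41, EGLN1 by 1.29, P4HA2 by 1.15 and ENO2 by 1.09. The aldolases ALDOC and ALDOA thus lay on opposite sides, whereas P4HA1 and P4HA2 were both higher and LOX and LOXL2, and HIF1A and EPAS1, both lower in A2780s. Other probes gave differences short of 2-fold for EGLN1 (0.08, at a similar brightness, and 0.65), HK2 (0.77) and PKM2 (-0.64).

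For the genes that were called in SKOV3, the levels of the SKOV3 clones could be set beside both Ctrl RNAs. PFKM stood at 10.48 ± 0.20 (SD, n = 4 channels of 1 RNA) in the SKOV3 Ctrl, 12.63 in sh-S1, 12.70 in sh-S2 and 12.62 in the A2780s Ctrl. HIF1A stood at 12.45 ± 0.39 (SD, n = 4 channels of 1 RNA), 10.27, 10.44 and 10.72 in the same order. For both genes the levels of the clones lay nearer to the A2780s Ctrl than to the SKOV3 Ctrl. The same held for SLC2A1, LDHA, EPAS1, ADM and PLOD2. All of these genes were chosen for a mean change of at least 2-fold from the SKOV3 Ctrl. Being nearer to another RNA follows in part from that choice. The Ctrl RNAs were less than 2-fold apart for SLC2A1, LDHA, ADM and PLOD2. For these genes and HIF1A, both clones lay below the A2780s Ctrl as well as below the SKOV3 Ctrl. NDRG1, at 11.52, 10.15, 10.13 and 8.60 in that order, lay nearer to the SKOV3 Ctrl in both clones. SLC16A3, at 15.89, 12.21, 13.84 and 11.39, lay nearer to the A2780s Ctrl in sh-S1 and to the SKOV3 Ctrl in sh-S2. BNIP3 stood at 12.48 ± 0.21 (SD, n = 4 channels of 1 RNA) in the SKOV3 Ctrl, 12.75 in sh-S1, 14.54 in sh-S2 and 14.36 in the A2780s Ctrl, so that sh-S1 lay near one Ctrl and sh-S2 near the other. ADM stood at 11.46, 10.35, 10.03 and 10.69, and in pCMV-Hic-5 at 11.25.

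**Figure D4:**
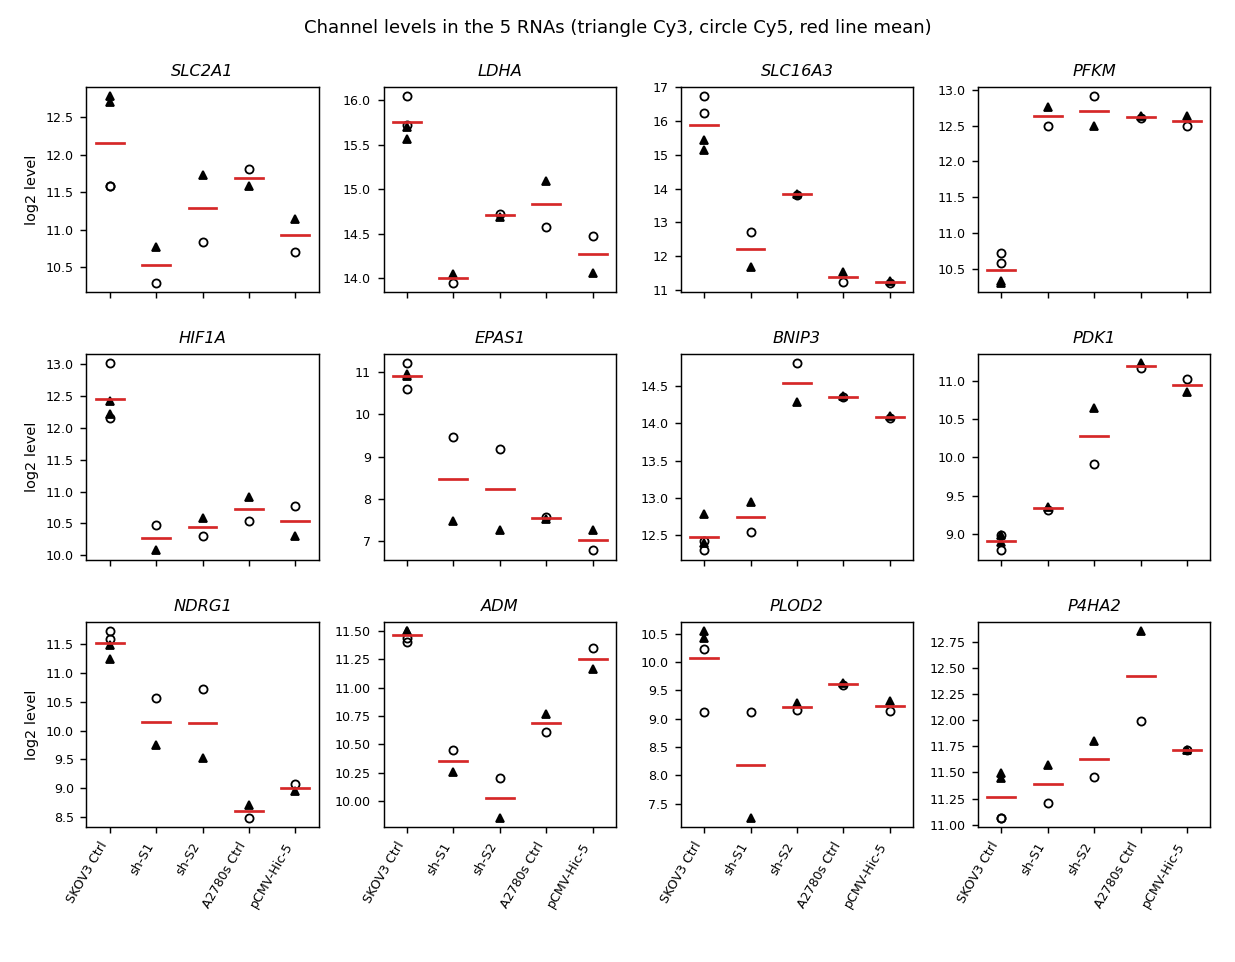
Log2 channel levels (vertical axes, a separate scale for each gene) of 12 members in the 5 RNAs (horizontal axes), with triangles for Cy3, circles for Cy5 and red lines for the mean of the channels. PFKM lies between 12.57 and 12.70 in every RNA except the SKOV3 Ctrl at 10.48, and BNIP3 in sh-S2 at 14.54 lies above sh-S1 at 12.75.

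Other genes of these pathways were read from lists of 131 genes, all on the array. In SKOV3, 105 were tested, 6 were called higher and 13 lower, where 2.98% and 4.16% of all probes were, and their median log2 ratio was 0.04. Of 21 other genes of glycolysis, gluconeogenesis and glycogen tested, PCK2, which makes phosphoenolpyruvate in the mitochondrion, was higher at 2.24 ± 0.55 (SD, n = 2; adjusted p = 0.000176 by limma) and the muscle enolase ENO3 at 2.00, while HKDC1, a hexokinase relative, was lower at -2.77 and the glycogen phosphorylase PYGB at -1.81. Of 19 genes of the pentose phosphate pathway and of pyruvate entry, TIGAR, a fructose bisphosphatase that lowers glycolytic flux, was higher at 2.50 ± 0.31 (SD, n = 2; adjusted p = 2.69e-05 by limma), and TALDO1 (transaldolase) and PC (pyruvate carboxylase) were lower at -1.32 and -1.37. Of 13 HIF partners and regulators, CITED2, a competitor of HIF alpha for its coactivators, was higher at 1.34 and ARNT2, a dimerization partner, lower at -1.42.

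Of 35 other hypoxia response genes tested in SKOV3, 1 was called higher and 6 lower, among them CAV1 (caveolin) at -3.74, IGFBP3 at -2.62, DUSP1 at -2.31, PPP1R3B at -1.18 and EFNA1 at -1.18, against DDIT4 at 1.09. P3H2 and LOXL1, a collagen prolyl hydroxylase and an oxidase, were lower at -3.0 and -2.49, and CA14 was higher at 2.85. Between the clones, 12 of the 105 genes were at least 1.5-fold higher in sh-S2 and 2 lower, where 1.32% and 1.74% of all probes were. Their median difference was 0.03, with 33 above 0 and 33 below 0 in both orientations, and by list it was -0.03 for the 21 other genes of glycolysis, gluconeogenesis and glycogen and 0.07 for the 35 other hypoxia response genes. Higher were DDIT4, an inhibitor of mTORC1 signalling, by 1.1, AK4 by 1.04, LDHC by 1.02, STC2 by 0.97, ERO1A by 0.90, HMOX1 by 0.86, ZNF395 by 0.82, PGM1 by 0.82 and PCK2 by 0.77, with FAM162A, TMEM45A and PLOD1 from 0.60 to 0.78. Lower were P3H1 at -0.75 and PPP1R3C at -0.61, and all of these are named here after their values were seen. In A2780s, 117 were measured, 8 were higher and 6 lower, where 3.26% and 1.32% of all probes were. Among the higher were HMOX1 (heme oxygenase) with a mean of 2.57, DUSP1 at 1.55, DDIT4 at 1.29, PCK2 at 1.21, STC2 at 1.03, PC at 0.93 and SIAH2 at 0.63. CXCR4 was lowest at -1.42, and GBE1, PGM2, HILPDA and CA3 had means of -0.82, -0.80, -0.73 and -0.68.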

How the data were processed

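Each array compared RNA of a modified clone with RNA of a Ctrl clone. The groups came from the labels of each channel, with dye-exchanged arrays of the same RNAs counted as 1 replicate, which left 2 replicates in SKOV3 and 1 in A2780s. The authors deposited spot intensities from Agilent Feature Extraction (version 10.7.3.1 in the file headers, 8.5.1.1 in the submitters' processing notes), with mean intensity and median local background unnormalized, and the software's processed intensities. The deposited log10 ratios (Cy5 over Cy3) were computed by the software, and the series values repeat them with rounding (largest difference under 0.5%) and without turning the dye-exchanged arrays. Their methods give thresholds of p and fold but not the normalization or the test.

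In R 4.3.3 with limma 3.58.1 and the package data.table (1.17.8), intensities were corrected with normexp (offset 50, fitted without spots flagged in the background or with a background over 1000), normalized within arrays by loess, averaged by probe and turned to clone over Ctrl in log2. Control spots and outlier-flagged spots were dropped. A probe entered if every Ctrl channel of a line, or both channels of a clone, stood well above background. SKOV3 ratios were tested against 0 with lmFit and eBayes and Benjamini-Hochberg adjustment over all probes, and the procedure was tested on simulated data. Levels were taken after loess and Aquantile normalization. The number of arrays, the signal over background and the single Ctrl RNA per line limit the precision. Promoter windows came from RefSeq (GRCh38.p14), and 5 members had no entry there. Every member was accounted for, with called members on every array, and called genes of the other pathway lists were named up to 6 per list, the largest first. The members and lists were chosen with earlier results of these data known. Alternatives covered the background correction, signal, normalization, filter, probe per gene, dye orientation, clone left out, thresholds and, added after seeing the data, outlier flags and the settings of the comparison of sh-S2 with sh-S1.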

Additional observations from a re-analysis of the deposited data

Results flagged for a closer look

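PGK1, the phosphoglycerate kinase of lower glycolysis, lay on opposite sides of the Ctrl in the SKOV3 clones, with log2 ratios of -0.88 and -0.36 in sh-S1 and of 0.02 and 0.38 in sh-S2. The difference of sh-S2 minus sh-S1 was 0.82 and was not tested, and the lowest sh-S2 value was close to 0. A second bright PGK1 probe gave -0.40, -0.46, 0.64 and 0.78 on the same arrays, and the remaining 3 probes of PGK1 were dimmer, with 2 of them at differences of 0.46 and 0.09 and 1 too dim to be measured.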

How the results depend on the processing

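In SKOV3, all 10 called members kept their direction under every alternative run, and PFKM, LDHA, SLC16A3, HIF1A, EPAS1, ADM and PLOD2 kept their call under all 13. SLC2A1 lost it under 3 and BNIP3 under 2, and NDRG1 under 1. Higher calls among the members were 2 in the reported setting, 6 on processed signals, 1 with median centring, 4 with the clone in Cy3 alone, and 2 to 6 with a clone left out, where lower calls ran from 7 to 11. Without the fold threshold there were 9 higher and 16 lower members, and 25 and 27 other pathway genes. The other pathway genes had 17 higher calls on processed signals and 5 to 11 with a clone left out, where lower calls stayed at 13. In A2780s, lower members were 4 on processed signals, 1 with the mean over probes, 5 with the clone in Cy5 alone, 1 with the clone in Cy3 alone and 1 with 1.5-fold asked of each array. Higher members were 1 with median centring, 1 with the mean over probes and 3 with the clone in Cy5 alone. Lower pathway genes there were 13 with the clone in Cy5 alone, 1 with the clone in Cy3 alone and 1 with 1.5-fold on each array. Between the Ctrl RNAs, processed signals left 5 lower members, and HK1 turned to 0.0399. For sh-S2 against sh-S1, 11 higher members became 17 with median centring and 17 with the clones in Cy3 alone, and 0 lower became 1 without background correction and 1 with the clones in Cy3 alone. The causes were not tested. Shares of all probes were given above for the reported settings and for adjusted p alone, and they do not apply to the other alternatives. Without such shares, the counts under those alternatives do not tell a change in the members from a change over all probes. No paired analysis was possible because the replicate numbers name the dye orientations of 1 pair of RNAs. The dim Cy5 channel in SKOV3 limits low signals.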

Other observations

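Between the Ctrl RNAs, 119 of the other pathway genes were compared, and 24 were at least 2-fold higher and 20 at least 2-fold lower in A2780s with no overlap of channels, where 7.94% and 9.5% of all 30784 probes were. By list, the other hypoxia response genes had 11 higher and 6 lower of 36 compared, and the other genes of glycolysis, gluconeogenesis and glycogen had 4 higher and 5 lower of 29. Slide and line cannot be told apart here.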
